A study of Mus musculus with 10 samples.

Results

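The genes of the proteasome were followed in the kidneys of aged mice on a control diet and under calorie restriction. Members were chosen by symbol: every gene named Psma, Psmb, Psmc, Psmd, Psme, Psmf or Psmg with a number, apart from Psmb8 and Psmb9, for which the array held a probe set annotated to that gene alone. The rule found 47 genes of 18193 with such a probe set, through 100 probe sets. Sorted by role, 17 genes encode subunits of the core particle, 17 encode subunits of the regulatory cap, 3 encode other activators (Psme1, Psme3 and Psme4), 1 encodes an inhibitor (Psmf1) and 7 encode assembly chaperones. The remaining 2, Psmc3ip and Psme3ip1, share only the prefix, and Psmc3ip acts in meiotic recombination. Psme2 was not analysed here, because its probe set is annotated to more than 1 symbol.

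The proteasome is the large protease that degrades most short-lived and damaged proteins of a cell after they have been tagged with ubiquitin. Its core is a barrel of stacked rings: outer alpha rings that gate the entrance and inner beta rings that carry the cutting sites. The cap recognises ubiquitin chains, removes them, and uses a ring of ATPases to unfold the substrate and feed it into the barrel. In the kidney, tubule cells take up large amounts of filtered protein, and the turnover of proteins during ageing and diet restriction has made the proteasome a frequent object of study.

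RNA came from 10 kidneys, each of a different male C57BL/6 mouse aged 30 months and each hybridised to its own Affymetrix array. The control diet group held 5 mice and the calorie restricted group 5 mice, so each p-value below measures the spread between these mice. The labels name no transgene or drug, the title calls the restriction long-term, and its strength and length in weeks or months are not stated in the labels. Kidney markers were bright on these arrays: the mean signal of Kap, an androgen-regulated proximal tubule gene, was 22040 ± 3686 (SD, n = 5) in controls and 36674 ± 4602 in restricted mice, and that of Umod, made by the thick ascending limb, was 25838 ± 2175 and 31542 ± 3128. Whole kidney was profiled, so fewer cells of a type and less RNA per cell cannot be told apart.

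Levels are given as MAS5 signals, the authors' deposited intensities on a linear scale, and differences as log2 values, calorie restricted minus control, each with its standard error (SE) in limma's fit. A gene is represented by its brightest probe set, and a gene counts as called when its Benjamini-Hochberg adjusted p over all 22517 tested probe sets is under 0.05. Signals of different genes come from different probes and are not set against each other.

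The arrays differed in the ratio of 3' to 5' probe signals of Gapdh and Actb, a measure that increases when the 5' ends of transcripts are less well represented in the labelled RNA. The log2 ratio was 0.91, 0.76, 0.94, 1.39 and 1.25 on control arrays 1 to 5 and 2.21, 2.01, 1.75, 1.24 and 1.16 on restricted arrays 1 to 5 (exact permutation test, 2-sided, p = 0.0476). Restricted arrays 1 to 3 were above every control, whereas restricted arrays 4 and 5 lay within the control range. For several genes the values on arrays 4 and 5 and with the ratio as a covariate are given below. Marker lists also moved, beside 3.08% of all genes tested called higher and 3.02% called lower. Of 14 tested proximal tubule markers, 10 were called higher under restriction. Their array means of centred log2 signal were -0.42 to -0.10 in controls and 0.093 to 0.30 in restricted mice. Their median difference of 0.38 was 0.15 after quantile normalization, where Kap was at 0.40 and Umod, of another segment, at -0.061. Of 16 macrophage markers, 5 were called lower, with array means of 0.034 to 0.86 in controls and -0.49 to 0.21 in restricted mice. Their median of -0.59 was -0.57 after quantile normalization. Of the 6 lymphocyte markers tested, 1 was called higher and 1 lower, and the same counts were found for 8 markers of other nephron segments. Their part in the proteasome values was not tested.

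Proteasome transcripts differed little between the diets. Of the 45 members that passed the filter on dim probe sets, 2 were called higher under restriction, Psma6 and Psmb3, and 0 were called lower by limma. Across the table, 376 of 12196 genes (3.08%) were called higher and 368 (3.02%) lower, so the count of 2 in 45 (4.44%) was close to the background. Over probe sets the whole table gave 659 higher and 712 lower calls, and with each array centred on its median 315 higher and 1218 lower, at which setting 0 members were called higher and 3 lower. At an unadjusted p under 0.05 there were 12 members, 7 higher and 5 lower, or 26.7% against 26.4% of all genes tested. The median difference was -0.028 for the 45 members and -0.005 for all genes tested, and the members ranged from -0.58 to 0.52.

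In the fit without the RNA ratio, the spread between mice bounded most of these differences. The 95% interval lay between -0.5 and 0.5 in 30 of the 45 members, against 5680 of 12196 genes tested. These intervals do not take the ratio into account, and 19 of the 45 members changed sign with it as a covariate. For the 43 proteasome genes without the name matches, the interval reached 0.17 to 0.41 to either side (median 0.23, against 0.31 for all genes tested). Of the 47 members, 24 were in the top 10% of genes by mean signal and 38 in the top 25%. The comparisons of intervals with all genes were not matched for brightness. Groups of arrays that did not overlap were found for 1 member higher under restriction, Psma6, and 1 lower, Psmc6, beside backgrounds of 3.80% and 3.69% of genes. The 2 members that failed the filter are known for other tissues: Psma8, the testis alpha subunit, had mean signals of 59.9 ± 32.1 in controls and 73.6 ± 39.7 in restricted mice, and Psmb11, the thymus beta subunit, 14.9 ± 13.5 and 39.6 ± 21.8 (SD, n = 5 each).

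**Figure D1:**
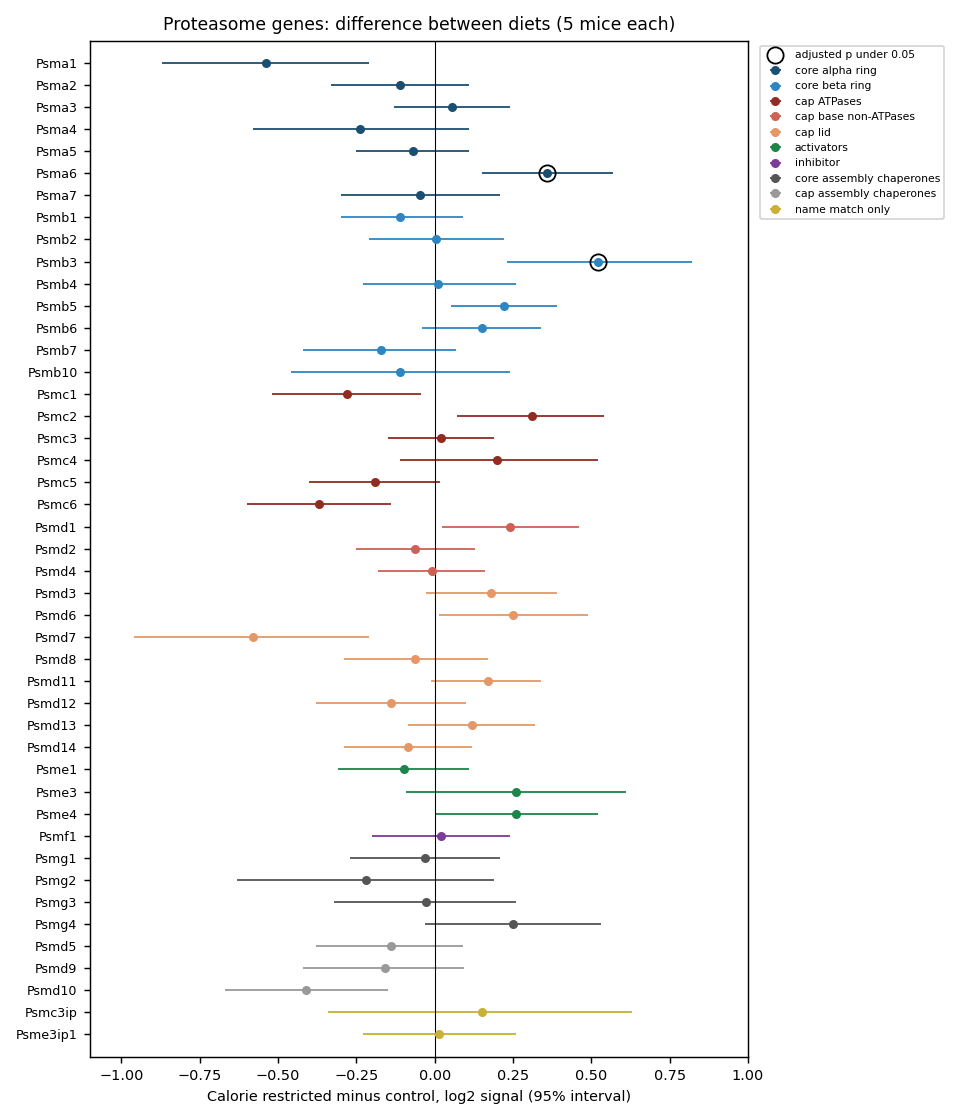
Log2 difference between calorie restricted and control kidneys for the 45 tested genes, sorted by role, with the 95% interval from limma and 5 mice per group; open rings mark an adjusted p under 0.05. Rings surround Psma6 (0.36) and Psmb3 (0.52) only, and the points of the core and of the cap fall on both sides of 0.

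The alpha ring, which forms the gate of the core, had 7 tested genes, of which 1 was called higher and 0 lower, with a median difference of -0.069. Psma6 gave signals of 8456, 7941, 7841, 9123 and 8588 in control mice 1 to 5 and of 12469, 12593, 10012, 9616 and 9484 in restricted mice 1 to 5. All restricted mice lay above all controls, with the highest values on restricted arrays 1 and 2. The mean increased from 8390 ± 521 to 10835 ± 1561 (SD, n = 5 each), a difference of 0.36 ± 0.098 (SE; 95% interval 0.15 to 0.57; adjusted p = 0.0463). A further probe set of Psma6 lay on the other side of 0, at -0.22 (adjusted p = 0.207), with means of 3980 ± 388 in controls and 3432 ± 432 in restricted mice. Another was at 0.45 (adjusted p = 0.178). The names of the called probe set and of the one at 0.45 end in x_at, and that of the one at -0.22 in plain _at. Whether the called probe set also reads other transcripts was not tested.

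The call of Psma6 rested on small margins. With the RNA ratio as a covariate the difference was 0.12 (adjusted p = 0.585), after quantile normalization 0.24 (adjusted p = 0.106), and with arrays 4 and 5 of each group 0.11. It was lost when any of control arrays 1 to 5 or restricted arrays 1 to 3 was left out, and kept without restricted array 4 or 5 (0.30 to 0.40; adjusted p 0.0257 to 0.114 over these fits).

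Psma1, an alpha subunit singled out after its values were seen, had the lowest difference of the core. Its signals were 3781, 4188, 3414, 3612 and 3160 in controls and 2133, 2007, 2065, 3335 and 3271 in restricted mice. Restricted arrays 1 to 3 were far below every control, while arrays 4 and 5 fell among them. The difference of -0.54 ± 0.15 (95% interval -0.87 to -0.21) did not pass the threshold in limma (adjusted p = 0.0532), and with the ratio as a covariate it was -0.13. It passed when restricted array 4 (adjusted p = 0.0252) or 5 (adjusted p = 0.021) was left out. Psma4 gave 5560, 5966, 6143, 5067 and 4447 in controls and 3525, 3743, 4137, 6526 and 5648 in restricted mice. Restricted mice 1 to 3 were below every control, mouse 4 was above every control and mouse 5 among them (difference -0.24 ± 0.16; adjusted p = 0.369). Its sign turned with the ratio as a covariate (0.23) and on arrays 4 and 5 of each group (0.35). The other alpha subunits were at -0.11 (Psma2), 0.055 (Psma3), -0.069 (Psma5) and -0.048 (Psma7), none of them called.

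The beta ring had 8 tested genes, of which 1 was called higher and 0 lower, with a median of 0.009. Psmb3, a beta subunit without a cutting site, gave signals of 4766, 6220, 7109, 7850 and 5689 in controls and 11342, 9975, 8069, 8154 and 7764 in restricted mice. Only restricted mouse 5 lay below the highest control, so the groups overlapped by 1 array. The mean increased from 6327 ± 1203 to 9061 ± 1543 (SD, n = 5 each), a difference of 0.52 ± 0.14 (95% interval 0.23 to 0.82; adjusted p = 0.0430). A further probe set of Psmb3 was at -0.19 (adjusted p = 0.333), with 2917 ± 239 in controls and 2587 ± 439 in restricted mice.

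The call of Psmb3 was kept when control array 4 or restricted array 4 or 5 was left out and lost without any other single array (0.43 to 0.61; adjusted p 0.0279 to 0.106). With the ratio as a covariate the difference was 0.24 (adjusted p = 0.529), after quantile normalization 0.43 (adjusted p = 0.0843), and as the mean over the probe sets of the gene 0.17 (adjusted p = 0.249).

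The 3 constitutive cutting subunits, described for their role, were not called. Psmb5, which carries the chymotrypsin-like site and is the main target of proteasome inhibitors, had signals of 6341, 6357, 6853, 6572 and 5907 in controls and 8177, 7581, 6665, 7404 and 7548 in restricted mice. Restricted mouse 3 was below the highest control, and the other restricted mice were above all controls. The difference was 0.22 ± 0.079 (95% interval 0.052 to 0.39; adjusted p = 0.0995), and it was 0.26 on arrays 4 and 5 of each group, 0.20 with the ratio as a covariate, 0.14 after quantile normalization and 0.12 after median centring. Psmb6, the caspase-like subunit, was at 0.15 ± 0.088 (95% interval -0.042 to 0.34; adjusted p = 0.307).

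Psmb7, the trypsin-like subunit, gave 9289, 9232, 9965, 8412 and 7831 in controls and 6629, 6955, 7492, 9479 and 9390 in restricted mice. The 3 restricted mice with a high ratio were below every control and the other 2 were within the control range, for a difference of -0.17 ± 0.11 (adjusted p = 0.347). With the ratio as a covariate the difference was 0.13, and on arrays 4 and 5 of each group 0.22. Psmb10 replaces Psmb7 in the immunoproteasome, the form made in immune cells and under interferon. It gave 881, 982, 989, 1292 and 1211 in controls and 792, 1199, 733, 1109 and 1190 in restricted mice, widely overlapping, at -0.11 ± 0.16 (95% interval -0.46 to 0.24; adjusted p = 0.709). The macrophage markers had array means of 0.055, 0.060, 0.034, 0.39 and 0.86 in controls and -0.49, -0.29, -0.48, -0.34 and 0.21 in restricted mice, and their part in the level of Psmb10 was not tested. Psmb1, Psmb2 and Psmb4 were at -0.11, 0.005 and 0.012. Further probe sets were at 0.45 (adjusted p = 0.105) and 0.13 for Psmb1 and at -0.20 (adjusted p = 0.319) for Psmb4.

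**Figure D2:**
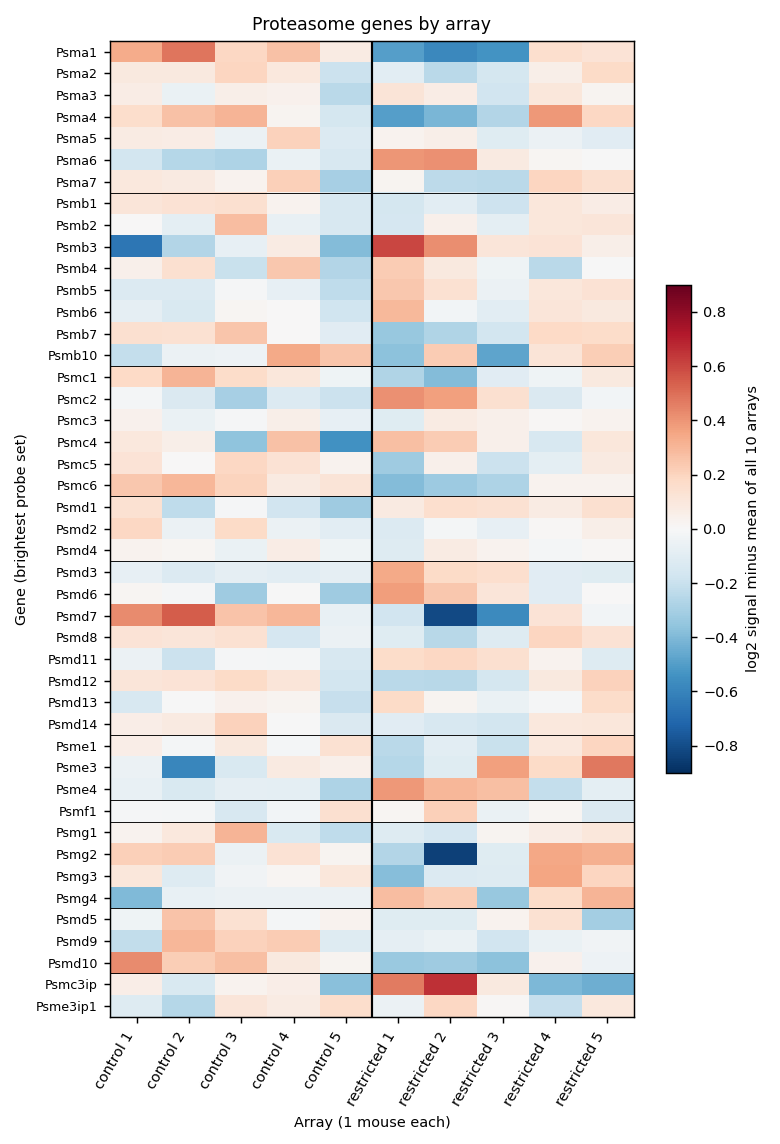
Log2 signal of each tested gene on each of the 10 arrays, minus the mean of that gene over all arrays, with genes in the order of their roles and columns for control mice 1 to 5 and restricted mice 1 to 5. In Psma1, Psma4, Psmb7, Psmc6 and Psmd7 the columns of restricted mice 1 to 3 are low and those of mice 4 and 5 are higher, whereas in Psma6 and Psmb3 restricted mice 1 and 2 are the highest.

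The cap had 17 tested genes, of which 0 were called in either direction by limma, 6 had an unadjusted p under 0.05 (3 higher and 3 lower), and the median was -0.008. Among the 6 ATPases that drive unfolding the median was -0.086. Psmc6 gave 2826, 2934, 2738, 2521 and 2592 in controls and 1825, 1905, 1966, 2439 and 2443 in restricted mice. Every restricted mouse was below every control, mice 4 and 5 by the least. The difference of -0.37 ± 0.11 (95% interval -0.60 to -0.14) was just outside the threshold (adjusted p = 0.0520). Both further probe sets of Psmc6 had the same sign, -0.34 (adjusted p = 0.103) and -0.67 (adjusted p = 0.0675). With the ratio as a covariate the difference was -0.12 (adjusted p = 0.628), and on arrays 4 and 5 of each group -0.067. It passed the threshold without restricted array 4 (adjusted p = 0.0319) or 5 (adjusted p = 0.0275). Without restricted array 1, 2 or 3 the adjusted p was 0.125, 0.126 and 0.118.

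Psmc2, another ATPase, gave 5936, 5472, 4878, 5497 and 5232 in controls and 7980, 7731, 6616, 5488 and 5889 in restricted mice. The first 3 restricted mice were above all controls and the last 2 among them (difference 0.31 ± 0.11; 95% interval 0.072 to 0.54; adjusted p = 0.0995), and the adjusted p was 0.0422 without restricted array 4. With the ratio as a covariate the difference was 0.077, and on arrays 4 and 5 of each group 0.084. Its further probe set was at -0.27 (adjusted p = 0.146), with means of 3088 ± 350 and 2561 ± 342. Psmc1 was at -0.28 ± 0.11 (adjusted p = 0.129), Psmc4 at 0.20 (adjusted p = 0.410) and Psmc5 at -0.19 (adjusted p = 0.228). Psmc3 was nearly level, with means of 3722 ± 152 and 3773 ± 180 (difference 0.020; 95% interval -0.15 to 0.19).

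The base of the cap also holds large scaffold subunits and ubiquitin receptors without ATPase activity. Psmd1, the larger scaffold, gave 1917, 1490, 1733, 1545 and 1395 in controls and 1844, 1941, 1922, 1837 and 1929 in restricted mice. The restricted mice were close together and control mouse 1 lay among them, for a difference of 0.24 ± 0.10 (95% interval 0.022 to 0.46; adjusted p = 0.154). The difference was alike in both sets of restricted arrays, 0.24 on restricted arrays 1 to 3 and 0.23 on arrays 4 and 5, each against the mean of all controls. Psmd2, the other scaffold, gave 4171, 3524, 4117, 3531 and 3437 in controls and 3362, 3615, 3473, 3691 and 3791 in restricted mice. The restricted mice lay mostly within the control range (-0.063 ± 0.088; adjusted p = 0.688). Psmd4, a ubiquitin receptor, was at -0.008, with further probe sets at -0.53 (adjusted p = 0.0909) and 0.40 (adjusted p = 0.359).

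The lid, which removes the ubiquitin chain, had 8 tested genes with a median of 0.028. Psmd7, the partner of the deubiquitinase Psmd14, had the lowest difference of all members. Its signals were 1012, 1097, 901, 926 and 720 in controls and 667, 428, 507, 821 and 742 in restricted mice, with the lowest on restricted arrays 2 and 3 and an overlap through control mouse 5. The difference was -0.58 ± 0.18 (95% interval -0.96 to -0.21; adjusted p = 0.0618), and it was -0.25 with the ratio as a covariate and -0.066 on arrays 4 and 5 of each group. It passed the threshold without restricted array 4 (adjusted p = 0.0322) or 5 (adjusted p = 0.0409).

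Psmd6, a structural lid subunit, had the smallest p of the lid genes with a positive difference. It gave 4497, 4417, 3570, 4441 and 3557 in controls and 5782, 5267, 4797, 4147 and 4465 in restricted mice, with restricted mice 1 to 3 above all controls (0.25 ± 0.11; 95% interval 0.015 to 0.49; adjusted p = 0.166). With the ratio as a covariate the difference was 0.086, and on arrays 4 and 5 of each group 0.11. The further probe set of Psmd6 was at 0.16 (adjusted p = 0.303), and at 0.43 on arrays 4 and 5 of each group. There restricted arrays 4 and 5 had the highest signals, 4310 and 4307. The remaining lid genes lay between -0.14 (Psmd12) and 0.18 (Psmd3), and Psmd14 itself was at -0.086.

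**Figure D3:**
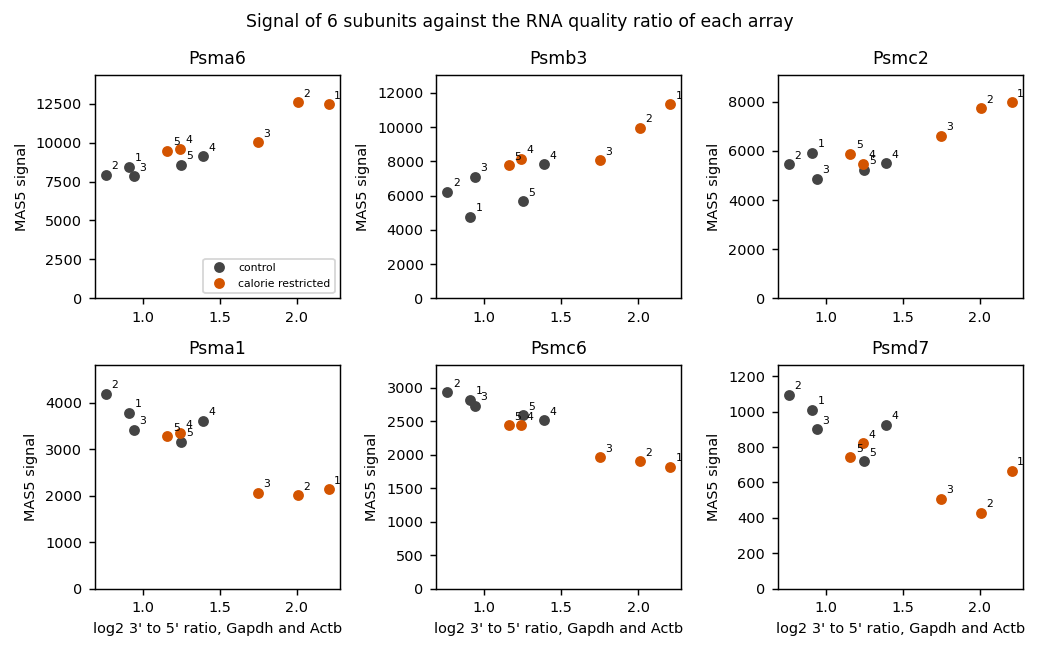
MAS5 signal of 6 subunits (linear axis from 0) on each array against the log2 3' to 5' ratio of Gapdh and Actb on that array, with control and calorie restricted mice in separate colours and numbered by mouse. The 3 restricted arrays with ratios of 1.75 to 2.21 have high Psma6, Psmb3 and Psmc2 and low Psma1, Psmc6 and Psmd7, while the 2 restricted arrays with ratios of 1.16 and 1.24 lie closer to the controls in all of these but Psmb3, where array 4 (8154) is above array 3 (8069).

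The activators bind the ends of the core in place of the cap, and their median difference was 0.26 over 3 genes, with none called by limma. Psme4, an activator found mainly in the nucleus, gave 2442, 2327, 2415, 2399 and 2106 in controls and 3343, 3140, 3085, 2197 and 2402 in restricted mice. Restricted mice 1 to 3 were above all controls and mice 4 and 5 among them (0.26 ± 0.12; 95% interval 0.002 to 0.52; adjusted p = 0.189). With the ratio as a covariate the difference was 0.017, and on arrays 4 and 5 of each group 0.031. Both further probe sets of Psme4 were below 0, at -0.28 (adjusted p = 0.143) and -0.23 (adjusted p = 0.463).

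Psme3, also a nuclear activator, gave 727, 502, 684, 798 and 780 in controls and 632, 700, 973, 849 and 1046 in restricted mice, overlapping across most of the range (0.26 ± 0.16; 95% interval -0.093 to 0.61; adjusted p = 0.335). The further tested probe set of Psme3 was at -0.006 (adjusted p = 0.985). Psme1, the interferon-inducible activator that works with the immunoproteasome, gave 3153, 2998, 3216, 2993 and 3341 in controls and 2566, 2840, 2639, 3235 and 3463 in restricted mice. Restricted mice 1 to 3 were below all controls and mouse 5 above them (-0.099 ± 0.099; 95% interval -0.31 to 0.11; adjusted p = 0.559). Psmf1, which binds the core and inhibits it in vitro, gave 839, 837, 766, 834 and 937 in controls and 856, 981, 811, 856 and 775 in restricted mice. The groups overlapped almost wholly (0.021 ± 0.10; 95% interval -0.20 to 0.24; adjusted p = 0.920).

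The assembly chaperones, which build the particle and leave it again, had a median of -0.14 over 7 genes, 1 above 0 and 6 below, with 0 called in either direction by limma. Psmd10, also known as gankyrin, helps to assemble the ATPase ring. Its signals were 967, 842, 871, 767 and 734 in controls and 572, 578, 559, 739 and 697 in restricted mice, with mice 1 to 3 well below the controls and mouse 4 just above the lowest control. The difference was -0.41 ± 0.12 (95% interval -0.67 to -0.15; adjusted p = 0.0576), and it was -0.18 with the ratio as a covariate. It passed the threshold without restricted array 4 (adjusted p = 0.0355) or 5 (adjusted p = 0.0423). Psmd9 gave 782, 1123, 1054, 1068 and 839 in controls and 862, 875, 808, 876 and 892 in restricted mice. The restricted mice all lay within the wider control range (-0.16 ± 0.12; adjusted p = 0.415). Psmd5 was at -0.14 (adjusted p = 0.422).

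Psmg2, which pairs with Psmg1 to assemble the alpha ring, gave 1214, 1222, 1009, 1141 and 1062 in controls and 869, 582, 969, 1330 and 1305 in restricted mice. Restricted mice 1 to 3 were below all controls and mice 4 and 5 above them, which left a mean difference of -0.22 ± 0.19 (95% interval -0.63 to 0.19; adjusted p = 0.493). Its further probe set was at -0.81 (adjusted p = 0.0647). Psmg4 gave 1108, 1393, 1406, 1410 and 1408 in controls and 1772, 1703, 1154, 1639 and 1804 in restricted mice, with 1 low mouse in each group (0.25 ± 0.13; adjusted p = 0.241). Psmg1 and Psmg3 were at -0.030 and -0.028. The genes that match by name alone were not called either. Psmc3ip gave 188, 164, 184, 188 and 139 in controls and 250, 284, 192, 136 and 133 in restricted mice, which were both the highest and the lowest (0.15; adjusted p = 0.717). Psme3ip1 gave 974, 883, 1138, 1113 and 1181 in controls and 1021, 1203, 1063, 915 and 1127 in restricted mice, widely overlapping (0.013; adjusted p = 0.956).

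Several of these genes separated restricted arrays 1 to 3 from restricted arrays 4 and 5. In 20 of the 45 members arrays 1 to 3 all lay below arrays 4 and 5, in 7 they all lay above, and in 18 they overlapped. The shares, 44.4% below and 15.6% above, compare with 23.4% and 19.3% of all genes tested. In 33 of the 45 members (73.3%) arrays 1 to 3 were farther from the control mean than arrays 4 and 5, against 64.2% of all genes tested. Relative to the control mean on the log2 scale, Psma1 was at -0.81 on arrays 1 to 3 and at -0.13 on arrays 4 and 5, and Psmc2 at 0.46 and 0.076. Separation in either direction was found in 60% of the members, beside 42.7% of all genes tested. By group it was 7 of 8 in the lid, 3 of 4 core assembly chaperones and 5 of 7 in the alpha ring. It was 3 of 6 cap ATPases and 3 of 8 in the beta ring, and these groups are small. Most members are brighter than most genes, and the shares of all genes were not matched for brightness.

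The medians of the groups depended on which restricted arrays entered. With arrays 4 and 5 of each group, the median was 0.16 for the core, 0.084 for the cap, 0.082 for the activators and 0.21 for the assembly chaperones. With the ratio as a covariate in all 10 arrays, it was 0.10, 0.037, 0.071 and 0.16 in the same order. The mean of the core genes on each array, centred over arrays, was -0.007, 0.028, 0.053, 0.090 and -0.15 in controls and -0.011, -0.028, -0.16, 0.097 and 0.092 in restricted mice. Control mouse 5 and restricted mouse 3 were the lowest, and the groups overlapped.

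**Figure D4:**
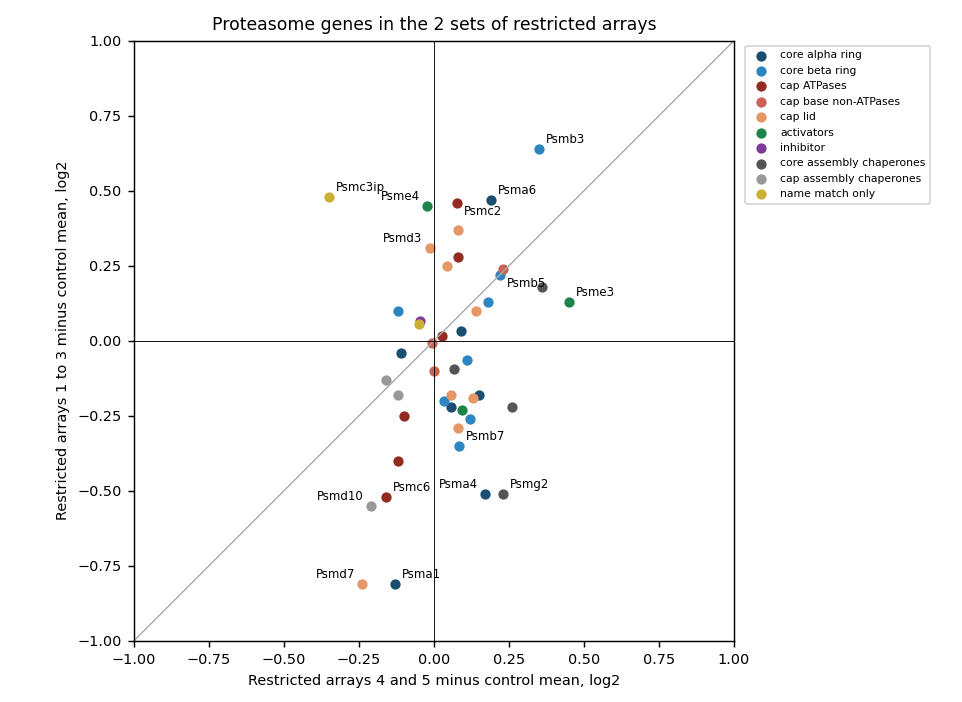
Each point is 1 tested gene, coloured by role: the log2 difference of restricted arrays 4 and 5 from the control mean (x axis) against that of restricted arrays 1 to 3 (y axis), with the line of equality. Psma1 and Psmd7 lie at -0.81 on the y axis and at -0.13 and -0.24 on the x axis, Psmb5 lies on the line at 0.22, and Psma4, Psmb7 and Psmg2 have opposite signs on the 2 axes.

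Different probe sets of the same proteasome gene often gave opposite signs. In 19 members a further probe set passed the filter, 30 in all. Of these, 13 had the sign of the brightest probe set (43.3%) and 17 the opposite sign, against 59.0% with the same sign among 7829 further probe sets of all genes tested. Psma6, Psmb3, Psmc2 and Psme4, above, are among those with opposite signs, as are Psmb1, Psmb4 and Psmd4. The brightest probe sets of Psma6, Psmb4 and Psmc2 have names ending in x_at, and that of Psme4 in s_at. The further probe sets of opposite sign in these genes have names ending in plain _at. In Psma7 the sign was shared and the size was not, with -0.048 for the brightest probe set and -0.43 for the other (adjusted p = 0.0515). Psmd11, a lid subunit, had 4 tested probe sets at 0.17, 0.26, 0.055 and, with the opposite sign, -0.47 (adjusted p of the last 0.0507). Where along the transcript each probe set lies was not used here.

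**Figure D5:**
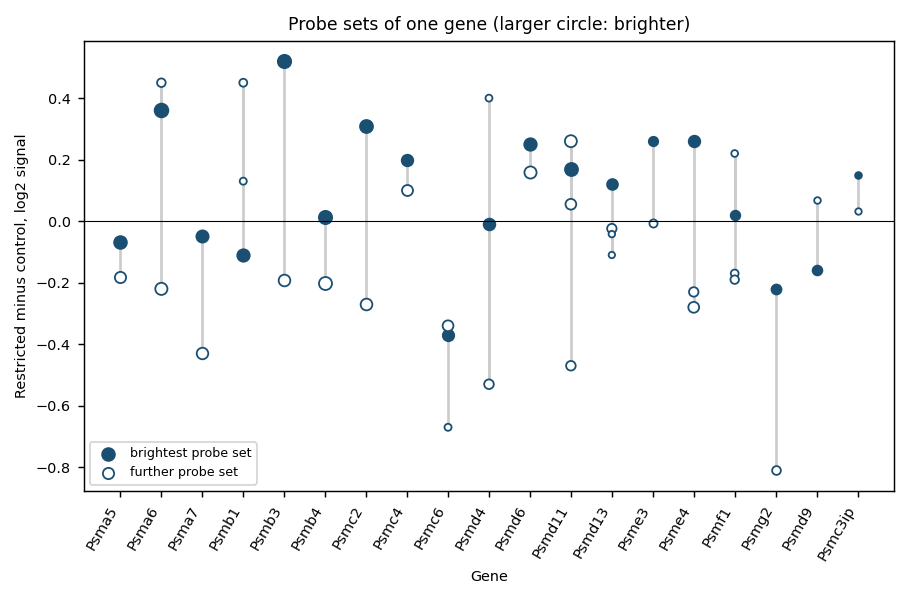
Log2 difference between calorie restricted and control mice for every tested probe set of the 19 genes with more than 1, filled for the brightest and open for further probe sets, with larger circles for brighter ones. In 12 of these genes at least 1 open circle lies on the other side of 0 from the filled one.

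Transcription factors of the cap'n'collar family, Nfe2l1 and Nfe2l2, raise the transcription of proteasome genes through antioxidant response elements. Nfe2l1 had mean signals of 1957 ± 334 in controls and 2122 ± 219 in restricted mice (0.13; adjusted p = 0.539). Nfe2l2 had 3983 ± 259 and 3127 ± 646 (-0.37 ± 0.13; adjusted p = 0.0891), with 2545, 2519 and 2957 on restricted arrays 1 to 3 and 3870 and 3743 on arrays 4 and 5. Without restricted array 4 or 5 its adjusted p was 0.037 and 0.0416, and on arrays 4 and 5 of each group its difference was -0.092. The core of the element, TGACNNNGC on either strand, was sought in the RefSeq promoters (GRCm38.p6, 250 bases before to 50 after the start site) of the 37 members found in that table. It was present in 6 of 37 (16.2%), against 14% of 27025 genes. The GC box GGGCGG, a binding sequence of Sp1, was sought on either strand as well. Its matches can overlap those of the first motif, and it was in 21 of 37 (56.8%) against 38.2%.

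The windows below show where the element core lies in front of the 5 genes in which it is wholly upstream, among them the cutting subunits Psmb5 and Psmb6 and the ATPase Psmc6. Each is 40 bases from the coding strand of the gene, 5′ to 3′, and the capitals mark the match. Psmb5 is on chr14:54618018-54618057, minus strand, with the first base of the match 47 bases before the start site. Psmb6 is on chr11:70525317-70525356, plus strand, 9 bases before it. Psmc6 is on chr14:45329582-45329621, plus strand, 227 bases before it with the match on the other strand. Psmd9 is on chr5:123228144-123228183, plus strand, 31 bases before it. Psmd12 is on chr11:107479278-107479317, plus strand, 247 bases before it with the match on the other strand.
Psmb5: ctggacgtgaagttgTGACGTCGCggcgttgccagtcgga
Psmb6: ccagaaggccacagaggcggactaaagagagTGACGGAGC
Psmc6: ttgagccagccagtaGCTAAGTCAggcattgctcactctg
Psmd9: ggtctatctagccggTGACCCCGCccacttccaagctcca
Psmd12: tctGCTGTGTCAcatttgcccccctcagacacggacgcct

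The genes with these matches did not share a direction: the differences were 0.22 for Psmb5, 0.15 for Psmb6, -0.37 for Psmc6, -0.16 for Psmd9, -0.14 for Psmd12 and 0.26 for Psme4, whose match crosses the start site. None of them was called. A match is a run of letters and not a measured binding site.

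Genes that work with the proteasome were read from lists of 34, of which 24 were tested. Of these, 0 were called higher and 1 lower by limma, beside 3.08% and 3.02% of all genes tested, and the median was 0.002. At an unadjusted p under 0.05 in limma there were 6 of the 24, 0 higher and 6 lower. Of all 12196 genes tested, 1542 were higher and 1682 lower at that threshold, 26.4% in both directions together. The 1 called lower was Zfand5, a zinc finger protein that binds the proteasome and stimulates degradation. It gave 2666, 2662, 2664, 2439 and 2797 in controls and 1766, 1735, 1810, 2200 and 2122 in restricted mice, without overlap, and fell by 0.46 on the log2 scale (-0.46 ± 0.097; adjusted p = 0.0215). The call was lost in 10 of 23 alternatives. These were the ratio as a covariate (-0.29; adjusted p = 0.255), restricted arrays 4 and 5 against all controls (-0.29; adjusted p = 0.366), arrays 4 and 5 of each group (-0.27; adjusted p = 0.332), the mean of its probe sets (-0.21; adjusted p = 0.458), the fit without intensity trend (adjusted p = 0.0548) and the replicate block (adjusted p = 0.0815). It was also lost without control array 2 or without restricted array 1, 2 or 3 (highest adjusted p 0.0597). Its further tested probe sets were at -0.24, -0.10 and -0.020. Ufd1, another gene of these lists, also had groups without overlap, with 848 ± 87.4 in controls and 672 ± 46.7 in restricted mice. It was not called (-0.33 ± 0.11, adjusted p = 0.0768) and was at -0.17 on arrays 4 and 5 of each group. Groups without overlap and lower under restriction were found for 3.69% of all genes tested.

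The other lists held no called gene. Uchl5, a deubiquitinase bound to the cap, had means of 1278 ± 119 and 948 ± 170 (-0.44 ± 0.13; adjusted p = 0.0537), and its adjusted p was 0.0425 and 0.0197 without restricted array 4 or 5. On arrays 4 and 5 of each group the difference was -0.11, and the further tested probe set of Uchl5 was at 0.16 (adjusted p = 0.599). Akirin2, which brings proteasomes into the nucleus, was at -0.22 (adjusted p = 0.202) with 2419 ± 101 and 2095 ± 301. Uba6, an enzyme that activates ubiquitin, was the only gene tested of its list and was at -0.17 (adjusted p = 0.425). Pomp, the chaperone that matures the beta ring, was at -0.25 (adjusted p = 0.214).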

How the data were processed

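Per the labels, RNA of 10 kidneys was extracted with Trizol and hybridised as biotin-labelled cRNA, 1 mouse per array. The deposited table holds MAS5 signals, 1 linear intensity for each probe set and array, which the authors computed with Affymetrix Expression Console (named in the submitters' processing notes, without a version). MAS5 scales each array to a common mean, and array medians were 114.7 to 136.2.

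Symbols came from the platform annotation: of 45101 probe sets, 34958 had 1 symbol, 932 had several and 64 were controls. All 47 members were found in RefSeq. The deposited intensity values below 1 (922) were set to 1 and log2 was taken. Probe sets with a mean log2 signal at or above the median of 6.81 were tested (22517) in R 4.3.3 by limma 3.58.1, using lmFit and eBayes with intensity trend, 2-sided. The script was tested on simulated data. The exact permutation test was run for the RNA ratio.

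Members and gene lists were chosen with earlier results of these data known. Full values are given for called genes, for the 2 smallest p in each role without a call, and for Psmb10 and the activators. Psma1, Psma4, Psmb5 to Psmb7 and the examples of probe sets were added after their values were seen. From each list of genes that work with the proteasome, the called gene or else the gene with the smallest p was taken. Nfe2l1, Ufd1 and Pomp were added outside these rules. Replicate numbers paired no samples (correlations of the deviations -0.141 to -0.087). Alternatives were other scalings, filters, offsets and variance models, the mean over probe sets, the RNA ratio as a covariate, arrays 4 and 5 alone, a replicate block, and leaving out each array. The 5 arrays per group limit the precision.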

Additional observations from a re-analysis of the deposited data

Results flagged for a closer look

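Of 90 groups of 5 mice (45 genes, both diets), 4 held a mouse far from the other 4, against 4.5 that chance alone would give at 1 in 20. Psma2, an alpha ring subunit, had a signal of 4588 in control mouse 5, where the other controls had 5587 to 6022. Psmd12, a lid subunit, had 1782 in the same mouse, against 2147 to 2253. Psmg4, an alpha ring chaperone, had 1108 in control mouse 1, against 1393 to 1410, and 1154 in restricted mouse 3, against 1639 to 1804.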

How the results depend on the processing

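The 2 calls among the members, both higher under restriction, became 0 with the RNA ratio as a covariate, with restricted arrays 4 and 5 against all controls, with arrays 4 and 5 of each group, without the intensity trend, with the mean of the probe sets, after median centring, without the filter, after quantile normalization and with a replicate block. Leaving out 1 array at a time gave 0 to 3 higher and 0 to 4 lower calls. Lower calls numbered 4 with array weights, 3 after median centring and 4 with a filter at the top 30%, and the genes gained were Psma1, Psmc6 and Psmd10, with Psmd7 in all but median centring. Over the whole table, 659 probe sets were higher and 712 lower. These counts were 4 and 5 with the covariate, 1066 and 1226 with array weights, 0 and 1 with restricted arrays 4 and 5 against all controls, 78 and 120 with arrays 4 and 5 of each group, 89 and 154 without the trend, 126 and 161 without the filter, 351 and 413 after quantile normalization, 43 and 84 with the replicate block, and 315 and 1218 after median centring, which moved the median of all genes to -0.10. Leaving out 1 array gave 60 to 1117 higher and 65 to 1364 lower. The numbers pair no samples, so the block is only listed.

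The median of the core, -0.048, was 0.10 with the covariate, 0.11 with restricted arrays 4 and 5 against all controls and 0.16 with arrays 4 and 5 of each group. That of the cap, -0.008, was -0.11 after median centring and 0.084 with arrays 4 and 5 of each group. That of the activators, 0.26, was 0.071 with the covariate, 0.093 and 0.082 with the sets of arrays 4 and 5, -0.081 with the mean of the probe sets, 0.16 after median centring, and 0.15 to 0.28 when 1 array was left out. Of the 45 members, 19 changed sign with the covariate, 19 with restricted arrays 4 and 5 against all controls, 18 with arrays 4 and 5 of each group, 6 after median centring, 5 with the mean of the probe sets, 4 after quantile normalization and 1 with array weights. For the genes given with full values, in the order covariate, restricted arrays 4 and 5 against all controls, arrays 4 and 5 of each group, the turned values were -0.32, -0.35 and -0.26 for Psmc3ip, -0.11, -0.050 and -0.18 for Psme3ip1, -0.077, -0.046 and -0.12 for Psmf1, 0.22, 0.23 and 0.26 for Psmg2, 0.23, 0.17 and 0.35 for Psma4, 0.13, 0.082 and 0.22 for Psmb7, and 0.071, 0.093 and 0.082 for Psme1. Psmd2 was 0.034 with the covariate and 0.10 with arrays 4 and 5 of each group, Psmb10 was 0.12 and Psme4 -0.023 with restricted arrays 4 and 5 against all controls. With the mean of the probe sets Psme4 was -0.081 and Psmf1 -0.029. Median centring gave -0.084 for Psme3ip1 and -0.077 for Psmf1. Leaving out 1 array gave -0.050 to 0.067 for Psme3ip1 and -0.029 to 0.060 for Psmf1. The cause of these changes was not tested.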
